A study of Mus musculus with 8 samples.

Results

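The hypothalamus of diabetic mice that received leptin was compared with that of saline controls, to see which genes were still off the control level under treatment. Diabetes was induced with streptozotocin (STZ), a drug that destroys the insulin-producing beta cells of the pancreas, and leptin, the hormone of fat tissue, was infused continuously and, by the study's design, centrally. The comparison used 3 arrays of STZ with leptin (replicates 6, 7 and 8) and 2 arrays of saline controls (replicates 4 and 5), 5 of the 8 arrays of the study. The 3 arrays of STZ without leptin (replicates 1, 2 and 3) served to estimate the spread, and their values are set beside the others. All mice are labelled as males of 12 to 15 weeks. The strain is given only as mixed, the labels do not say whether the controls had an infusion, and no leptin-infused group without diabetes was analysed here. Every gene detected on the arrays was a member of the comparison: 15494 of 25697 probes were detected on 2 or more arrays (detection p-value below 0.05), and the 14615 of them with a gene symbol stood for 10703 genes. The labels do not state that each array held a separate animal, so p-values measure the spread between these samples, which may be technical.

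The tissue label held on the arrays compared. Of 32 hypothalamic regional markers on the array 26 had a kept probe, and 24 to 25 of them were detected per array in the saline and leptin groups; Sim1, Otp, Lhx6, Hmx2, Hmx3 and Nr5a1 had no kept probe. The 2 saline arrays correlated at 0.992 over the kept probes, the 3 leptin arrays at 0.982 to 0.988 with each other, and leptin with saline arrays at 0.970 to 0.977. Of 3 Y-linked genes with a kept probe, Kdm5d and Uty were detected on all 8 arrays, whereas Eif2s3y was detected on the 3 leptin arrays and on none of the other 5.

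Leptin acts on hypothalamic neurons through its receptor, the kinase JAK2 and the transcription factor STAT3, which switches on the feedback inhibitor Socs3 and shifts the balance of feeding peptides. Interferon signalling induces large GTPases, antiviral proteins and the machinery that presents peptides on MHC molecules. Microglia, the resident macrophages of the brain, carry much of the chemokine, complement and Fc receptor expression of brain tissue, and blood leukocytes share many of these genes.

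Of the 10703 genes 227 passed the test between leptin and saline (2.12% of the genes tested), 184 of them higher with leptin (1.72%) and 43 lower (0.402%). The test was limma's moderated test with Benjamini-Hochberg adjustment over all kept probes at an adjusted p of 0.05 and no minimum fold, and by probes 255 passed as higher (1.65% of 15494) and 63 as lower (0.407%). At an unadjusted p under 0.05, 1843 probes passed. Differences are log2 values given with limma's moderated standard error (SE), for 3 leptin and 2 saline arrays. Of the 227 genes 182 differed by at least 2-fold, against 360 of all 10703 genes. Detected on all leptin arrays and on neither saline array were 41 of the 227, against 104 of all genes. The converse was seen in 13, against 69 of all genes. It needs detection on 2 arrays rather than 3, so the 2 counts are not symmetric. The genes just inside the threshold were Myo1g, Lst1 and Man2b1 (differences 1.17, 2.35 and 0.75), and those just outside were Tex261, Pou2f2 and Dhcr7 (0.71, 0.87 and -0.90). The call rests on both control arrays: without saline replicate 4 the count was 77 genes, and without saline replicate 5 it was 92. Of 77 named genes that passed, 39 did not pass in the first of these fits and 31 did not in the second, in which a lone saline array is assumed to vary like the other groups. The probes that passed as lower numbered 18 and 17 in these fits and 100 without STZ replicate 1.

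The genes off the control level had their arrays in different orders, counted by the gene's probe of highest signal. In 72 of the 184 higher genes every leptin array lay above both saline arrays and below every STZ array, an order found in 2.8% of all genes. In 84 of them all 3 leptin arrays lay above the other 5 arrays, saline and STZ alike (5.33% of all genes), and the other 28 had neither order. Of the 43 lower genes 41 had all leptin arrays below the other 5 (4.31% of all genes), and none lay in steps from saline through leptin to STZ (0.561%). These shares are no matched background and no test of the orders was made: leptin and saline arrays did not overlap in any of the 227 passing genes, as in 3690 of all 10703, and each of these orders needs that. The median difference from saline with leptin was 1.54 in the 72 stepped genes, whose median STZ difference from saline was 2.79. In the 84 genes with leptin arrays apart the medians were 1.57 with leptin and -0.03 with STZ, and in the 41 lower genes -1.04 and -0.25. Over all genes they were -0.03 and -0.08. Both differences are taken from the same saline arrays and are given side by side only.

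Secreted acute-phase proteins held the highest residual differences. Lcn2, lipocalin 2, which binds the iron carriers of bacteria, had log2 intensities of 4.86 and 4.56 in saline, 12.23, 10.40 and 11.51 with leptin, and 12.02, 14.55 and 14.29 in STZ. All leptin arrays were far above the saline arrays, on which it was not detected, and they overlapped the STZ range through leptin replicate 6. Lcn2 was at least 72.9-fold above saline with leptin (difference 6.67 ± 0.73 SE, adjusted p = 0.00189), the dimmer group's value being the higher of the probe's own and the lowest signal of a detected probe on each array. Saa3, a serum amyloid A protein of acute inflammation, read 5.71 and 5.24 in saline, 12.41, 11.01 and 11.67 with leptin, and 12.93, 14.29 and 14.52 in STZ. Its 3 groups did not overlap, and the leptin arrays were 74.7-fold above saline (6.22 ± 0.51, adjusted p = 0.000305). These were the 2 passing genes among 18 acute-phase genes with a kept probe, and the median difference of the 18 was 0.63 with leptin and 1.89 with STZ. Haptoglobin (Hp), 1.98 ± 0.66, and the metalloproteinase inhibitor Timp1, 2.49 ± 0.72, did not pass (adjusted p = 0.251 and 0.169).

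Among chemokines and their receptors 7 of 29 kept members were higher and 1 was lower, with a median difference of 0.86. Cxcl13, which attracts B cells, read 5.25 and 5.96 in saline, 11.11, 9.94 and 11.03 with leptin, and 11.35, 11.89 and 12.32 in STZ. The leptin arrays lay wholly between the other groups and much closer to STZ, 34.0-fold above saline (5.09 ± 0.40, adjusted p = 0.000272). Cxcl10, which attracts T cells and is induced by interferon, read 4.67 in both saline arrays, 8.75, 7.75 and 8.07 with leptin, and 10.44, 11.90 and 11.53 in STZ. It was undetected in saline, detected on every other array, and at least 8.0-fold above saline with leptin (3.52 ± 0.41, adjusted p = 0.00261). The CC chemokines Ccl3 (3.64 ± 0.60, at least 11.3-fold), Ccl4 (4.29 ± 0.66) and Ccl5 (4.25 ± 0.79, at least 16.6-fold), the monocyte attractant Ccl12 (3.75 ± 0.51) and the membrane-bound Cxcl16 (3.12 ± 0.36) were the other higher members, and Ccl3 and Ccl5 were undetected on both saline arrays. Ccl5 varied most among these between leptin arrays, at 10.76, 9.61 and 7.37 in replicates 6, 7 and 8, with both saline arrays near 5.0. Its adjusted p was 0.0280 with all arrays and 0.220 without saline replicate 4, and that of Ccl4 moved from 0.0108 to 0.136. Cxcl9, another interferon-induced T cell attractant, did not pass (2.56 ± 0.72, adjusted p = 0.161), with a STZ difference from saline of 6.94.

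**Figure D1:**
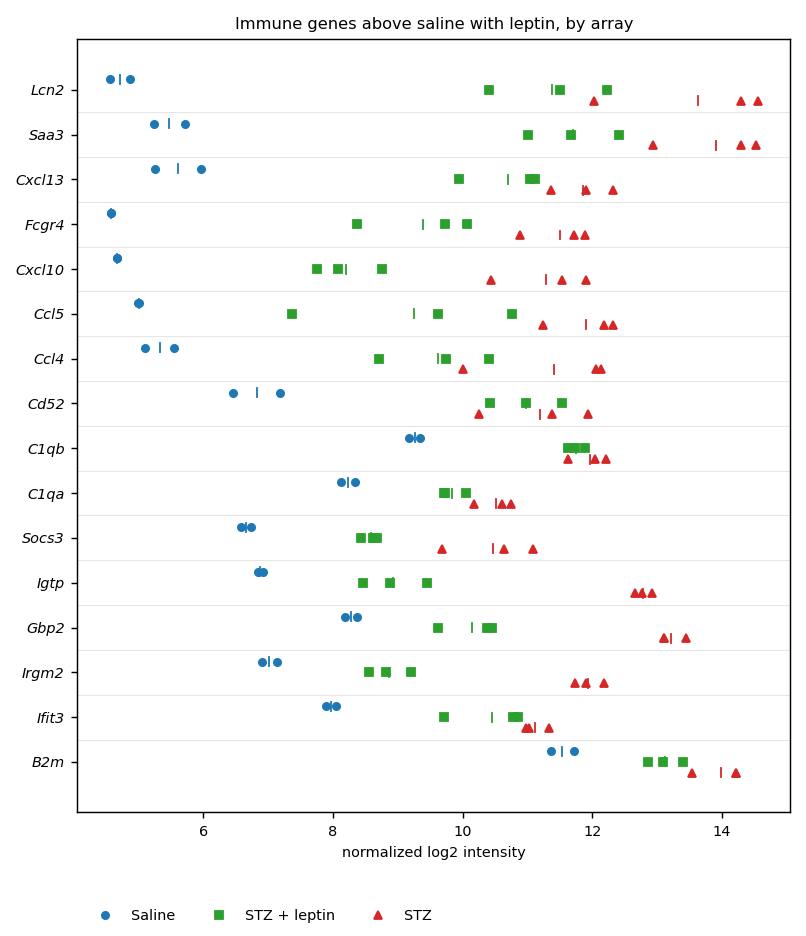
Normalized log2 intensity (x axis) of 16 immune genes (rows) on each array, with circles for saline (2 arrays), squares for STZ with leptin (3 arrays) and triangles for STZ (3 arrays); short vertical lines mark group means. In every gene the squares lie to the right of the circles, and in Igtp, Gbp2 and Irgm2 they lie nearer to the circles than to the triangles.

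Interferon-induced GTPases passed in 45.45% of the kept members of their list. The list of guanylate-binding proteins and immunity-related GTPases, which attack the vacuoles of intracellular pathogens, had 11 kept members, of which 5 rose and none fell with leptin against saline. All 11 had a positive difference, with a median of 1.03 with leptin and 3.98 with STZ. Igtp read 6.83 and 6.92 in saline, 9.45, 8.47 and 8.87 with leptin, and 12.76, 12.92 and 12.66 in STZ. Gbp2 read 8.19 and 8.37 in saline, 10.45, 9.62 and 10.37 with leptin, and 13.10, 13.44 and 13.11 in STZ. In both genes the groups were well separated, with leptin replicate 7 the lowest of the leptin arrays. The differences from saline were 2.05 ± 0.25 for Igtp (4.15-fold, adjusted p = 0.00321), 1.86 ± 0.25 for Gbp2, 1.84 ± 0.21 for Irgm2, 1.82 ± 0.24 for Ifi47 and 1.47 ± 0.19 for Gbp3. Without saline replicate 4 the adjusted p was 0.0509 for Igtp, 0.0754 for Gbp2, 0.0682 for Gbp3 and 0.0460 for Irgm2, and Ifi47 stood at 0.0748 without saline replicate 5. Gbp5, 1.03 ± 0.28, and Tgtp1, 0.09 ± 0.33, did not pass (adjusted p = 0.144 and 0.947).

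Promoter sequences are shown for the genes in which interferon and STAT response motifs can be seen beside the values, with Socs3, described further on, as the STAT3 target. They are RefSeq sequences of assembly GRCm38.p6, from 250 bases before to 50 after the annotated start, read 5′ to 3′ on the gene's strand. Capitals mark matches, on either strand, to the core of the interferon-stimulated response element (TTTC and TTTC with 2 bases of any kind between them) or to the gamma-activated site bound by STAT dimers (TTCNNNGAA). The windows are chr11:58199306-58199605 (plus strand) for Igtp, chr11:58214727-58215026 (plus) for Irgm2, chr3:142620413-142620712 (plus) for Gbp2, chr19:34583279-34583578 (plus) for Ifit3 and chr11:117969317-117969616 (minus) for Socs3. The start used for Ifit3 and for Socs3 lies inside the gene's span (chr19:34583119-34588982 and chr11:117966079-117970336). Their windows are therefore not the sequence before the whole gene.
Igtp: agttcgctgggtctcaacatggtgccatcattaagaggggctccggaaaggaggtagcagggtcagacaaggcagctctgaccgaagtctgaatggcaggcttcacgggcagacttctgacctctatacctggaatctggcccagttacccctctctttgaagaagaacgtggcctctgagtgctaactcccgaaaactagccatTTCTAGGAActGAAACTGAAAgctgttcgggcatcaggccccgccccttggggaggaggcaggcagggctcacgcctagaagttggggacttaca
Irgm2: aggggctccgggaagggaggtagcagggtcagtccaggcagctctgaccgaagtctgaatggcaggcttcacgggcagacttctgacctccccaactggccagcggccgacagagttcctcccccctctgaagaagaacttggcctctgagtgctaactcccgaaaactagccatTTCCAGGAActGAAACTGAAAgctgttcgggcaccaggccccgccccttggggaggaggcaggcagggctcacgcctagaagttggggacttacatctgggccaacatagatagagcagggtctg
Gbp2: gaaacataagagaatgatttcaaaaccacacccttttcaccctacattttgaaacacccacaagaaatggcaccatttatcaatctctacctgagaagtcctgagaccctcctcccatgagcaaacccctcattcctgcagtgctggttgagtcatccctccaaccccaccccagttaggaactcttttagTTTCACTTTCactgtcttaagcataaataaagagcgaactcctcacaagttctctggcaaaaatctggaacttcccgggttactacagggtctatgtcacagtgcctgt
Ifit3: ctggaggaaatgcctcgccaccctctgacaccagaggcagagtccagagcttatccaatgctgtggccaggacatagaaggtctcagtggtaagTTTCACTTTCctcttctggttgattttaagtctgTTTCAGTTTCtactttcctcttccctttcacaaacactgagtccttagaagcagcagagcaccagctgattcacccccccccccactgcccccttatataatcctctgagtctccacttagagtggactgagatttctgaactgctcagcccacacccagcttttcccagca
Socs3: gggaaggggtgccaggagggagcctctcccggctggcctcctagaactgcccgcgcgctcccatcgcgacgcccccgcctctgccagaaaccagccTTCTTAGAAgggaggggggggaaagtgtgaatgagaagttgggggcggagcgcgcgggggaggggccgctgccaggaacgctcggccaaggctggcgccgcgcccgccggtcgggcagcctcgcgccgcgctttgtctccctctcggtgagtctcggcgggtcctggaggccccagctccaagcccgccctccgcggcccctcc

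Igtp and Irgm2 lie near one another on chromosome 11 and carry the same arrangement, a gamma-activated site followed by the response element core in reverse complement. Of the 7 passing genes of the GTPase and antiviral lists 5 had a response element core in the window. Ifi47 and Oasl2 had none. Over the 27025 genes with a promoter in the table the share was 3.99%. Both lists were made of interferon-induced genes, so the high share follows in part from that choice and is no independent result. The core was in 9 of 51 stepped genes with a promoter in the table, the same 5 among them. It was in 3 of 112 genes with the leptin arrays apart. The gamma-activated site was in 5 of the 51 and 10 of the 112, against 9.55% of all genes. The kappaB site (GGG and TTTCC with 2 bases of any kind between them) was in 1 of the 51 and 3 of the 112, against 1.89%. A match describes letters in the window and not binding.

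The antiviral genes and the transcription factors of the same response were nearer to control. Of 30 kept antiviral genes 2 passed, both higher, and the median difference was 0.64. Ifit3, which binds viral RNA complexes with its relatives, read 7.89 and 8.04 in saline and 10.86, 10.78 and 9.71 with leptin, and its 3 probes all passed with differences of 2.48, 2.08 and 1.80. Oasl2, an oligoadenylate synthetase-like protein, differed by 1.98 ± 0.35 (adjusted p = 0.0209, and 0.189 without saline replicate 4). Among 17 STAT and IRF factors Irf8 (0.95 ± 0.19) and Irf9 (0.81 ± 0.15) passed, with adjusted p-values of 0.0421 and 0.0321. The call of Irf8 was lost in 12 of the 20 alternative analyses and that of Irf9 in 8, including the fits that left out one or the other saline array, in which the highest adjusted p was 0.324 for Irf8 and 0.326 for Irf9.

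Antigen presentation was split between genes in steps and genes apart. In the MHC class I list 4 of 21 kept members were higher and none lower, with a median difference of 0.46. B2m, the light chain of class I molecules, read 11.36 and 11.72 in saline, 13.39, 12.86 and 13.10 with leptin, and 13.54, 14.22 and 14.21 in STZ, a difference of 1.58 ± 0.25 with leptin (adjusted p = 0.0128, and 0.174 without saline replicate 4). H2-Q7 differed by 1.70 ± 0.21, H2-T23 by 2.83 ± 0.20 and the tapasin relative Tapbpl by 0.77 ± 0.14. Without saline replicate 4 H2-Q7 stood at an adjusted p of 0.0628. The other probe of Tapbpl gave -0.13, the mean of both did not pass (adjusted p = 0.390), and its call was lost in 7 of 20 alternative analyses. Psmb9, an immunoproteasome subunit, was just outside the threshold (1.67 ± 0.36, adjusted p = 0.0552). In the MHC class II list, the peptide-presenting molecules of macrophages, dendritic cells and B cells, 2 of 12 kept members passed. H2-Aa read 4.68 and 4.40 in saline, 9.07, 7.47 and 9.25 with leptin, and 4.60, 4.88 and 5.63 in STZ. H2-Eb1 read 4.73 and 4.79 in saline, 9.29, 7.93 and 9.41 with leptin, and 5.97, 5.86 and 6.42 in STZ. In both genes the leptin arrays were the high ones, with no overlap with either other group, at least 10.6-fold and 12.8-fold above saline.

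Other members of the class II pathway did not show that order. H2-Ab1, the partner chain of H2-Aa, had 4 kept probes, of which 1 passed. Its probe of highest signal read 7.04 and 7.51 in saline, 9.64, 7.97 and 10.86 with leptin, and 11.80, 12.67 and 12.62 in STZ. Here the STZ arrays were the high ones, and the difference with leptin, 2.22 ± 0.68, did not pass (adjusted p = 0.206). The invariant chain Cd74 differed by 2.60 ± 0.57 with leptin (adjusted p = 0.0602) and by 4.79 with STZ. Ciita, the master regulator of the class II genes, differed by 0.28 ± 0.18 with leptin and 2.12 with STZ.

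All 3 chains of C1q, the first component of the classical complement cascade, passed, as did C4b, so that 4 of 14 kept complement genes were higher and none lower. C1qb read 9.17 and 9.34 in saline, 11.88, 11.73 and 11.62 with leptin, and 11.63, 12.21 and 12.04 in STZ. Its leptin arrays overlapped the STZ arrays and were 5.60-fold above saline (2.49 ± 0.19, adjusted p = 0.000230). C1qc differed by 2.23 ± 0.18, C1qa by 1.60 ± 0.20 and C4b by 1.49 ± 0.22; without saline replicate 4 the adjusted p of C1qa was 0.0641 and that of C4b 0.125. Fcgr4, an activating receptor for immunoglobulin G, was undetected in saline (4.58 and 4.57), and read 10.07, 8.37 and 9.73 with leptin and 10.88, 11.89 and 11.71 in STZ. The groups of Fcgr4 did not overlap, and it was at least 18.4-fold above saline with leptin. The adaptor Fyb, the phosphatase Ptpn6 and the adaptor Lat2 also passed, 4 of 13 kept members of the Fc receptor list.

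Of 19 kept markers of homeostatic microglia 6 were higher with leptin and 1 was lower, and the median difference was 0.48. The higher members were C1qa, C1qb, C1qc, Aif1 (2.13 ± 0.33), Fcrls (3.38 ± 0.33) and Ly86 (1.24 ± 0.22). The defining markers Tmem119 (0.35 ± 0.18, adjusted p = 0.534) and Cx3cr1 (0.38 ± 0.22, adjusted p = 0.588) did not pass. P2ry12, the ADP receptor of resting microglia, read 10.33 and 10.27 in saline, 7.51, 8.04 and 7.98 with leptin, and 10.46, 9.84 and 10.21 in STZ. Its leptin arrays were the low ones and its saline and STZ arrays overlapped, with a difference of -2.46 ± 0.22 with leptin (adjusted p = 0.000568). The summed normalized intensity of the 19 markers was 6922 to 7439 in saline, 13950 to 15390 with leptin and 19240 to 24300 in STZ. Without the 3 chains of C1q it was 5627 to 5961, 7637 to 8126 and 11830 to 13430.

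Leukocyte markers were examined beside these genes. Of 21 on the array 13 had a kept probe, and Cd4, Cd8a, Gzma, Gzmb, Ms4a1, Ccr2, Mpo and Cxcr2 had none. Of the 13 markers 2 to 3 were detected per saline array and 8 to 12 per leptin array. Of the 13, 10 were undetected on both saline arrays and were kept through other arrays, so the detection filter sets part of the low saline count. Their summed intensity was 414.1 to 456.9 in saline, 1075 to 1939 with leptin and 2221 to 12690 in STZ. Fpr2, the formyl peptide receptor of phagocytes (at least 19.6-fold, 4.43 ± 0.54), and Cd79b, a chain of the B cell receptor (1.82 ± 0.25, at least 2.70-fold), passed, while Cd3e (0.60 ± 0.21) and S100a8 (1.56 ± 1.32) did not. Cd52, a surface glycoprotein of leukocytes, read 6.46 and 7.19 in saline, 11.53, 10.97 and 10.42 with leptin, and 10.25, 11.94 and 11.38 in STZ, a range that the leptin arrays lay within. Its difference from saline was 4.15 ± 0.48 with leptin. Without saline replicate 4 the adjusted p was 0.0709 for Cd79b, 0.154 for Cd84, 0.0837 for Ch25h, 0.0509 for Tlr2 and 0.0578 for Ptpn6. Cd86, Cd84 and Laptm5 were the other 3 passing members among 16 kept genes of immune checkpoints and costimulation. Of 15 kept markers of activated microglia and macrophages 2 passed, Tlr2 and the oxysterol enzyme Ch25h (2.72 ± 0.39), and their sum was 3429 to 3756 in saline and 5018 to 9306 with leptin. The part of microglia and leukocytes in the immune differences was not tested, and in bulk tissue fewer cells of a type and less RNA per cell cannot be told apart.

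**Figure D2:**
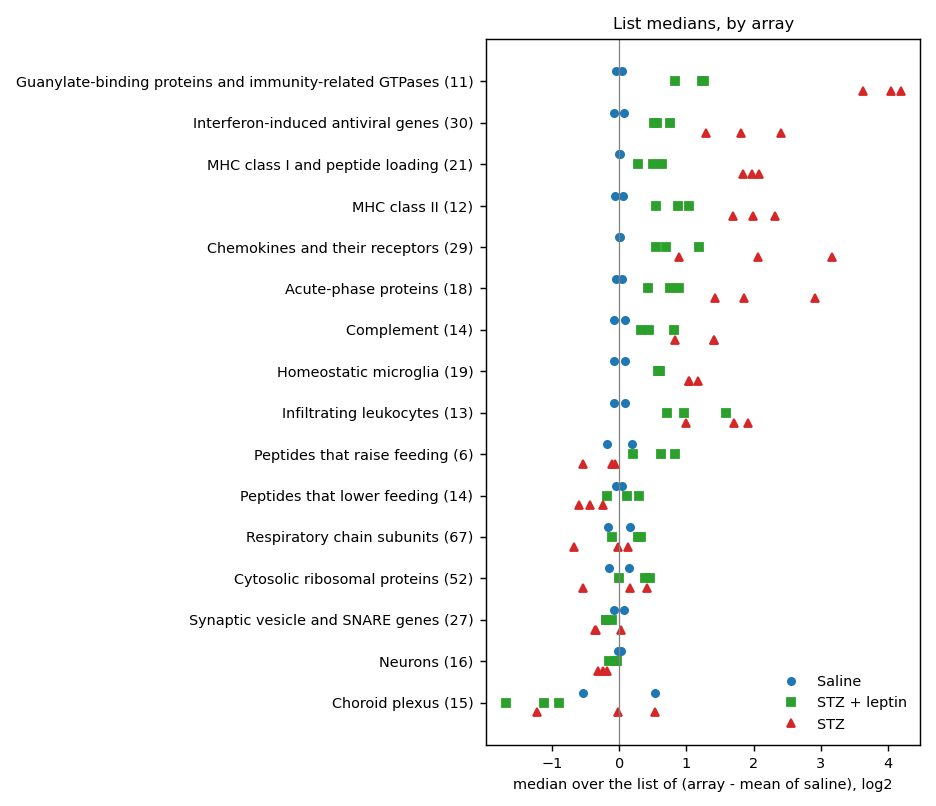
Median over the kept members of each list (number in parentheses) of the log2 difference between an array and the saline mean, for each saline (circles), STZ with leptin (squares) and STZ (triangles) array. The 3 leptin arrays lie between 0.83 and 1.26 for the GTPase list and between -1.69 and -0.89 for the choroid plexus list.

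The leptin arrays differed among themselves in how far the stepped genes remained from control. The median difference from saline of the 72 stepped genes was 1.64 in replicate 6, 1.35 in replicate 7 and 1.56 in replicate 8. Replicate 7 was the lowest leptin array in 56 of these genes and replicate 6 the highest in 49. Over all 10703 genes replicate 7 was the lowest in 3417 and replicate 6 the highest in 3241. The median range among the 3 leptin arrays was 0.54 in the stepped genes and 0.31 in all genes, and the median gap between the 2 saline arrays was 0.18 and 0.15; a range over 3 arrays is by construction wider than a gap between 2.

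In the signalling list of the leptin receptor and its STAT3 targets 3 of 24 kept genes were higher, with a median difference of 0.28. Socs3, which blocks signalling by the leptin receptor, read 6.58 and 6.74 in saline, 8.68, 8.62 and 8.43 with leptin, and 9.68, 11.08 and 10.64 in STZ. The leptin arrays lay close together between the others and were 3.77-fold above saline (1.92 ± 0.34, adjusted p = 0.0219). Socs3 passed in 12 of 20 alternative analyses, and its adjusted p was 0.215 without saline replicate 4 and 0.155 without saline replicate 5. Il6st, the signal-transducing chain gp130 shared by receptors of the interleukin-6 family, read 5.30 and 4.99 in saline, 8.28, 8.10 and 7.92 with leptin, and 5.49, 5.71 and 5.11 in STZ. Only the leptin arrays were high in Il6st (2.96 ± 0.21, adjusted p = 0.000120), and Irf9 was the remaining member that passed. Stat3 did not pass by any of its 3 probes (0.35 ± 0.22 by the probe of highest signal), and Lepr had no kept probe.

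Of 48 kept genes of cytokine and NF-kB signalling 5 were higher, among them Il6st and Tlr2, which lists described above also count. The Toll-like receptor Tlr2 (2.07 ± 0.25), the co-receptor Ly96 of Tlr4 (2.08 ± 0.41) and the nuclear IkB protein Nfkbiz (1.90 ± 0.31) passed together with Il6st and Nfkbib. Nfkbiz stood at an adjusted p of 0.178 without saline replicate 4, and Nfkbib at 0.0531 without saline replicate 5. Nfkbib, an inhibitor of NF-kB, had the leptin arrays alone high, at 7.90, 7.34 and 7.94 against 6.09 and 5.89 in saline and 5.86 to 6.22 in STZ. Casp1, the caspase of the inflammasome (1.22 ± 0.25, adjusted p = 0.0406), and its pore-forming substrate Gsdmd (1.17 ± 0.20, adjusted p = 0.0195) were 2 of 13 kept members of their list. Casp1 passed in 9 of 20 alternative analyses and Gsdmd in 12, and the highest adjusted p was 0.283 for Casp1, without saline replicate 5. No member passed among the listed 21 lysosomal cathepsins and membrane proteins, 28 constitutive proteasome subunits and 19 tripartite motif genes. These lists do not cover whole families. Trim11 (3.22) and Trim62 (1.69), outside the tripartite motif list, passed, as did the lysosomal enzymes Lipa (2.47) and Man2b1 (0.75).

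Feeding peptides did not differ detectably from control with leptin. None of 6 kept peptides that raise feeding and none of 14 that lower it passed, with median differences of 0.49 and 0.05. Gal, the peptide galanin, came nearest, at 9.59 and 10.12 in saline, 11.20, 11.75 and 10.87 with leptin, and 9.39, 10.26 and 9.95 in STZ. The leptin arrays of Gal lay above all others, but its difference of 1.42 ± 0.32 had an adjusted p of 0.0658, and it passed in 4 of 20 alternative analyses. Npy differed by 0.50 ± 0.39, Pmch by 0.49 ± 0.18, Hcrt by 0.49 ± 0.32, Cartpt by 0.18 ± 0.29 and Trh by 0.05 ± 0.23. Pomc had 0.38 ± 1.40, with saline arrays at 7.71 and 7.81, leptin arrays at 7.83 to 8.37 and STZ arrays at 5.97 to 11.88. The SE comes from the STZ arrays: with only the groups compared the difference was 0.38 ± 0.18 (adjusted p = 0.414), and without STZ replicate 2, the array at 11.88, 0.38 ± 0.25 (adjusted p = 0.617). Avp (0.70 ± 0.37), Oxt (0.71 ± 0.25), Bdnf (-0.14 ± 0.16), Igf1 (0.17 ± 0.20) and Irs2 (-0.15 ± 0.17) did not pass, and Crh and Insr had no kept probe and Agrp no probe of that name.

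Most other lists held few or no passing genes. No member passed among the listed 67 respiratory chain subunits, 52 cytosolic ribosomal proteins, 27 genes of insulin and IGF signalling and 20 clock genes. Nor did any of the listed 28 immediate early genes, 27 synaptic vesicle and SNARE genes and 37 transmitter receptors and channels. Cox6a2, a cytochrome c oxidase subunit that the respiratory chain list left out, passed (3.26), and the other lists do not cover whole families either. Single members passed in several lists of 21 to 39 kept genes. That was 2.56% to 4.76% of a list, near the 2.12% of all genes, so it sets none of these lists apart. Lower were the chaperone Scg5 of prohormone processing (-0.88 ± 0.16), the somatostatin receptor Sstr1 (-1.15 ± 0.22, undetected with leptin, at least 1.64-fold lower) and the mitochondrial coactivator Ppargc1a (-0.90 ± 0.16). Higher were the sterol sensor partner Insig2 (1.17 ± 0.20), hexokinase 2, Hk2 (1.35 ± 0.21), the co-chaperone Dnajc3 (1.07 ± 0.14) and the NADPH oxidase subunit Ncf4 (2.21 ± 0.38). Lcn2 and Map3k6 (1.61 ± 0.29) were 2 of 27 glucocorticoid-induced genes. Of these 27, 25 had a positive difference (median 0.37), with array medians of 0.56, 0.25 and 0.42 with leptin and 0.06 and -0.06 in saline. Lists without a call could also shift: 7 of the 37 transmitter receptors and channels were positive (median -0.22), and 48 of the 52 ribosomal proteins (0.28). Leptin replicate 8 stood at -0.01 in the ribosomal list. Over all genes 45.1% were positive (median -0.03). Scg5, Sstr1, Ppargc1a, Insig2 and Ncf4 lost their call when either saline array was left out, with adjusted p up to 0.263 for Scg5, 0.295 for Sstr1, 0.207 for Ppargc1a, 0.207 for Insig2 and 0.162 for Ncf4; Hk2 stood at 0.150 without saline replicate 4 and Map3k6 at 0.261 without saline replicate 5. Dnajc3 stood at 0.0721 without saline replicate 4 and 0.0590 without saline replicate 5. The other probe of Insig2 gave -0.10, and the mean of both did not pass (adjusted p = 0.190). Of the neuronal markers none of 16 passed, nor did any of 15 oligodendrocyte, 11 precursor, 12 pericyte, 13 ependymal and tanycyte, or 26 hypothalamic markers. Of 22 reactive astrocyte genes Lcn2, Cxcl10 and Gbp2 passed, and none of 29 listed genes of the extracellular matrix and vascular response did. The collagens Col26a1 (0.95) and Col9a2 (-0.76), outside that list, passed.

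The 84 higher genes with the leptin arrays apart were led by genes of no one listed pathway. Csrp1, a LIM-domain protein of the cytoskeleton, read 6.82 and 6.33 in saline, 12.42, 12.52 and 12.46 with leptin, and 6.63, 6.21 and 6.48 in STZ. The leptin arrays lay close together and far from the other 5 arrays, which overlapped, 59.2-fold above saline (5.89 ± 0.19, adjusted p = 5.63e-07). Pdrg1, a gene regulated by p53 and DNA damage, read 4.46 and 4.72 in saline, 9.99, 9.87 and 9.94 with leptin, and 4.85, 4.61 and 4.50 in STZ, at least 26.8-fold above saline. Sspn, sarcospan of the dystrophin complex, read 4.43 in both saline arrays, 9.51, 9.75 and 9.43 with leptin, and 4.30, 4.49 and 4.38 in STZ, at least 20.7-fold above saline. Pdrg1 and Sspn were detected on the leptin arrays and on no other. Cops8, a subunit of the COP9 signalosome (4.65 ± 0.16), and Cbwd1 (4.59 ± 0.13, at least 13.6-fold) had the same order. Eif2s3y, the Y-linked chain of translation initiation factor eIF2, read 4.45 and 4.56 in saline, 8.21, 9.01 and 9.04 with leptin, and 4.48, 4.53 and 4.46 in STZ, at least 11.8-fold above saline. The other Y-linked genes did not pass (Kdm5d -0.53 ± 0.24, Uty 0.10 ± 0.21). Csrp1, Pdrg1, Sspn, Cops8, Cbwd1 and Eif2s3y passed in every alternative analysis that measured them.

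Genes below control were fewer, and 41 of 43 had the leptin arrays alone low. Gdpd3, a phospholipase D of lysophospholipids, read 10.19 and 10.33 in saline, 4.65, 5.71 and 4.85 with leptin, and 10.83, 11.49 and 11.34 in STZ. It fell by 5.19 ± 0.31 (adjusted p = 4.83e-05) and was detected on 1 of 3 leptin arrays. Prkag2, a regulatory subunit of the energy-sensing kinase AMPK, read 8.58 and 8.69 in saline, 4.89, 4.99 and 4.60 with leptin, and 8.94, 8.49 and 8.68 in STZ. Prkag2 was undetected on every leptin array and at least 10.8-fold below saline (-3.81 ± 0.18, adjusted p = 7.63e-06). Arv1, a protein of lipid homeostasis in the endoplasmic reticulum, and Yipf4, of the Golgi apparatus, were undetected with leptin in the same way, at least 6.60-fold and 4.65-fold lower. Psmc3ip, a partner of the meiotic recombinase, fell by 2.93 ± 0.23, and 4930555G01Rik, a gene of no role known here, by 4.30 ± 0.78, with 7.81, 4.74 and 4.88 on the leptin arrays. The latter call was lost in 8 of 19 alternative analyses (adjusted p up to 0.191, without saline replicate 5). Slco1c1, a thyroid hormone transporter of the brain endothelium and astrocytes, fell by 1.33 ± 0.20 (adjusted p = 0.0107). Its adjusted p was 0.106 without saline replicate 4 and 0.124 without saline replicate 5. The endothelial transporter Slco1a4 was higher by 1.57 ± 0.18, undetected in saline and STZ and at least 2.21-fold above saline.

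**Figure D3:**
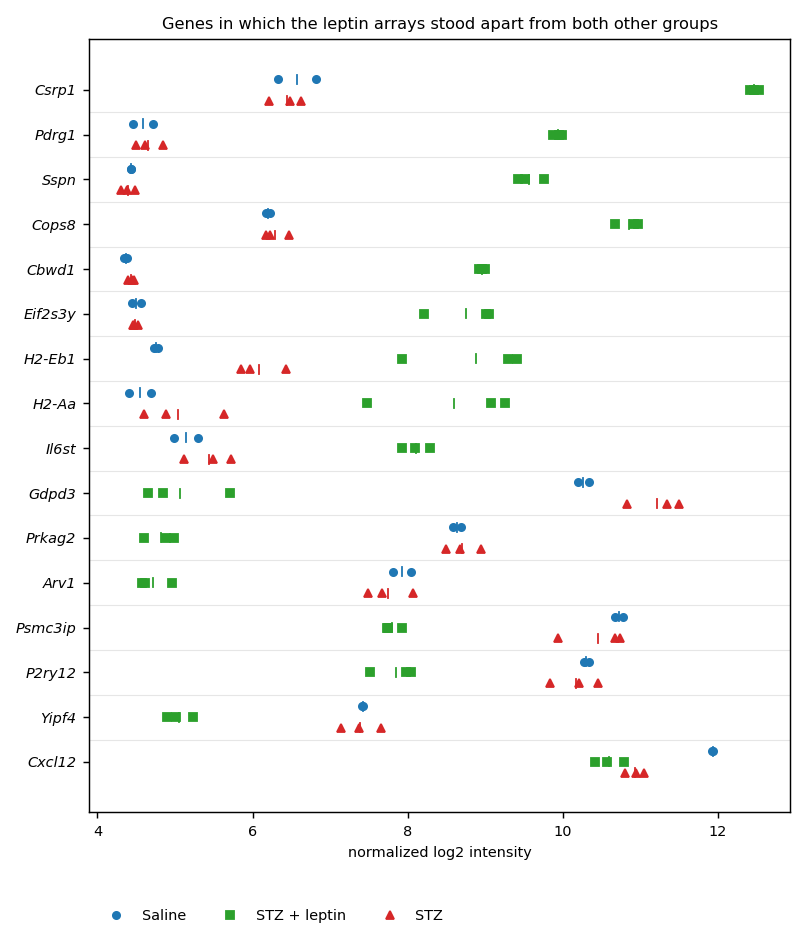
Normalized log2 intensity (x axis) of 16 genes (rows) on each array, with circles for saline, squares for STZ with leptin and triangles for STZ; short vertical lines mark group means. In Csrp1, Pdrg1 and Sspn the squares stand alone on the right and in Gdpd3, Prkag2 and P2ry12 alone on the left, with circles and triangles near each other.

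Of the lists for tissue next to the hypothalamus, choroid plexus and pituitary had the lowest medians with leptin. By array the choroid plexus median was -0.54 and 0.54 in saline, -1.69, -1.13 and -0.89 with leptin, and -1.225, 0.53 and -0.02 in STZ. The choroid plexus list had 15 kept members, none of which passed, but its median difference was -1.21, and the summed intensity was 16950 to 34540 in saline, 2653 to 6924 with leptin and 2848 to 35850 in STZ. Its defining markers gave -3.75 ± 1.63 for Ttr, -2.87 ± 0.68 for Kcne2 and -2.32 ± 0.82 for Folr1, and Kcne2 was not detected on any leptin array. Pituitary markers, 8 kept, had a median of -0.48 and summed to 1653 to 2284 in saline and 1376 to 1769 with leptin, and to as much as 81550 in STZ. No marker of thalamus, cortex or striatum passed, and their list medians were -0.10, -0.065 and -0.01, against -0.03 over all genes. The part of tissue carried along at dissection in the lower genes was not tested.

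Where a gene had several kept probes, their agreement was checked. Of 2790 such genes 90 had at least 1 passing probe (3.23%). All probes passed in 17 of the 90 and some in 73; all differences had the same sign in 64 and opposite signs in 26; in 47 a passing probe stood beside one of opposite sign or with an adjusted p above 0.5. By the order of the arrays of the best probe, 23 of 55 genes with leptin arrays apart had probes of opposite sign and 7 had every probe pass. Of 25 stepped genes 2 had probes of opposite sign and 7 had every probe pass. The numbers of genes in these classes are small and their shares were not compared by a test.

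Concordant probes were found in immune genes and in others. Besides Ifit3, both probes of B2m passed (1.58 and 1.39) and both of Gbp3 (1.47 and 1.57), and 2 of 3 probes of Adgre1, the macrophage surface protein F4/80, passed (3.58, 2.83 and 0.85). All 3 probes of Mcm6, a subunit of the replicative helicase, passed (2.52, 1.39 and 1.43), as did both of Fgf1, a fibroblast growth factor (2.10 and 1.31), and both of Wdr46 (2.02 and 1.75). Other immune genes were discordant: Ly9 gave 1.49 and 0.39, and Klhl6 1.17, 1.18 and 0.12. Cd79b, Ccl4, Irf9 and Lat2 passed by 1 of 2 probes, Gsdmd by 1 of 3, and Cd86 and Aif1 by 2 of 3. Their probes all had the same sign. Those that did not pass gave 0.83 for Cd79b, 2.65 for Ccl4, 0.82 for Irf9 and 0.55 for Lat2. In Gsdmd they gave 0.36 and 0.88, in Cd86 0.36 and in Aif1 0.68. Both probes of H2-T23, a nonclassical class I molecule, passed with 2.83 and 4.35, but their arrays fell in different orders. The probe of highest signal read 9.55, 9.72 and 10.04 in STZ, where the other read 4.53, 5.02 and 4.51, near its saline values of 4.35 and 4.36. Gbp2 passed by 1 of 2 probes (1.86 and 0.31), the second being undetected in both groups. Lyz1 passed by 1 of 3 probes (2.88, 1.06 and 1.04), and it is reported as uncertain because its near-identical neighbour Lyz2 may share hybridization.

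Discordant probes were also seen in genes with the leptin arrays apart. Mff, a receptor for mitochondrial fission, had a probe at 5.41 and 5.21 in saline, 10.78, 10.63 and 10.87 with leptin, and 5.06, 4.97 and 4.92 in STZ, a difference of 5.45 ± 0.14. Its other probe, the brighter, differed by -0.07 ± 0.28, so that Mff did not pass as a gene. Aqr, an RNA helicase of the spliceosome, differed by 3.96 ± 0.16 and -0.01 ± 0.20, and the DNA repair nuclease Ercc5 by 3.71 ± 0.32 and -0.40 ± 0.14. Ntrk2, the receptor of BDNF, had probes at 2.71 ± 0.27, -0.50 ± 0.18 and -1.06 ± 0.23. In the lower direction Mkks, a chaperonin-like protein, gave -3.21 ± 0.13 and 0.07 ± 0.24, and Rpap1 -1.96 ± 0.20 and 0.15 ± 0.15. Cxcl12, the only chemokine that passed as lower, read 11.93 in both saline arrays and 10.57, 10.79 and 10.41 with leptin by its brightest probe (-1.34 ± 0.16), while its other probes gave -0.37 ± 0.24 and -0.21 ± 0.32, and the mean of the 3 did not pass (adjusted p = 0.137). Klc1, a kinesin light chain, had 5 probes, all higher with leptin, of which 2 passed (2.16 and 1.62).

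**Figure D4:**
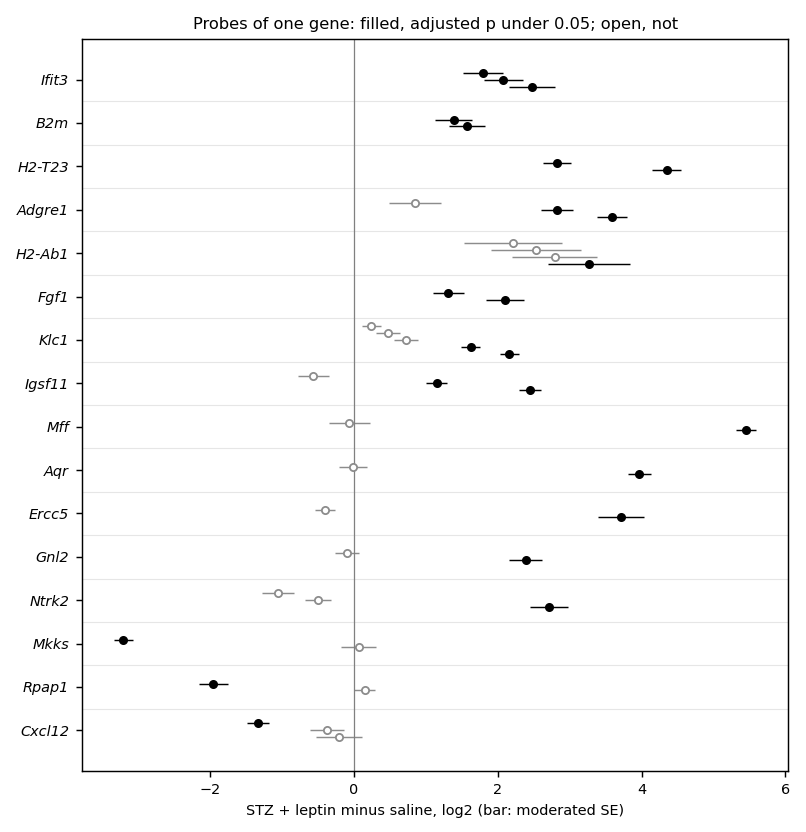
Log2 difference between STZ with leptin and saline (x axis, bars: moderated SE) for each kept probe of 16 genes (rows), filled where the adjusted p was under 0.05 and open where it was not. The probes of Ifit3, B2m and Fgf1 lie close together, while 1 probe of Mff stands at 5.45 and the other at -0.07.

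The chromosomal order of the passing genes was taken from the start coordinates in a RefSeq table. Of the 227 passing genes 85 had another passing gene among the 5 detected genes on either side (37.4%), against 17.3% of all 10700 genes that could be placed. For passing genes with the leptin arrays apart 36 of 125 (28.8%) had another of their own kind so near, against 10.1% of all genes, and for the other passing genes 35 of 102 (34.3%), against 8.09%. When each passing gene had to lie within 5 detected genes of the next, the longest run lay on chromosome 13, where 5 of 9 consecutive detected genes passed, all with the leptin arrays above the other 5. In order they were Il6st (2.96), Slc38a9, a lysosomal amino acid sensor (1.06), the RNA helicase Mtrex (1.78), Ccno (1.18) and Esm1, an endothelial proteoglycan (1.76). The 4 genes between them did not pass (Ddx4 -0.29, Plpp1 -0.17, Dhx29 0.22, Gpx8 0.04). On chromosome 14 D830030K20Rik (3.19), 4930555G01Rik (-4.30) and Rpp14 (0.84) passed within 7 detected genes, in opposite directions. Runs of immune genes were found as well, with all 3 of C1qb, C1qc and C1qa next to one another on chromosome 4, 3 of 5 (Ccl5, Ccl3 and Ccl4) on chromosome 11 and 4 of 6 (Arhgap30, F11r, Ly9 and Cd84) on chromosome 1. Genetic background is labelled only as mixed for all groups, and its part in genes that stood apart on the leptin arrays was not tested.

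**Figure D5:**
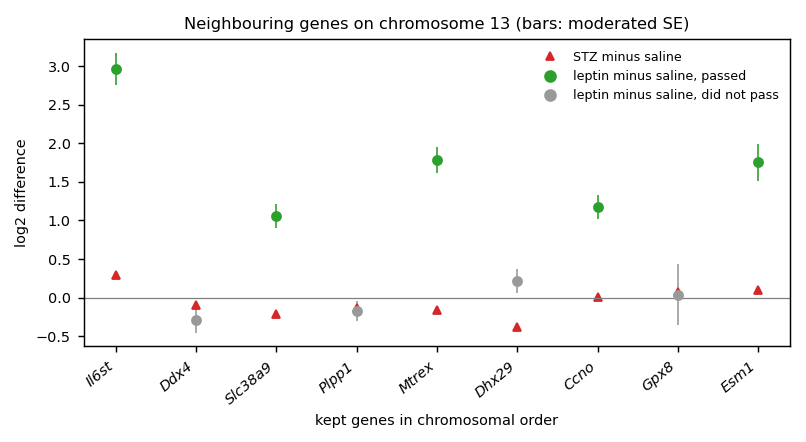
Log2 difference from saline (y axis) of 9 consecutive detected genes on chromosome 13, in order along the x axis: circles, STZ with leptin (green where the gene passed, grey where it did not; bars: moderated SE), and triangles, STZ. Il6st, Slc38a9, Mtrex, Ccno and Esm1 stand at 1.06 to 2.96 with leptin, and the STZ values of all 9 lie between -0.39 and 0.30.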

How the data were processed

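RNA of hypothalamic blocks, 300 ng per sample, was copied into biotin-labelled cRNA and hybridized to Illumina mouse bead arrays, 1 per sample, per the labels. Per the file headers, the deposited raw table holds a linear intensity and a detection p-value per probe and array, not normalized. The deposited processed table holds log2 values (column medians 6.9), ranks probes as the raw table does, and was an alternative; which software made it is not stated in the labels or headers.

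Intensities were background-corrected with nec of limma 3.58.1 (R 4.3.3; negative controls inferred from the detection p-values, offset 16), log2-transformed and quantile-normalized. Probes with a detection p under 0.05 on 2 or more of 8 arrays were kept. Raw medians were 117.2 to 127.5 and 53.0 to 57.5 percent of probes were detected per array; the number of arrays limits the precision. A model of 3 group means was fitted to all arrays (lmFit, eBayes; 5 residual and 3.94 prior degrees of freedom), with Benjamini-Hochberg adjustment over 15494 probes. The probe table gave 1 symbol to 23978 of 25697 probes and none to 1719. Of several kept probes of a gene, the one with the highest mean signal stood for it.

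Named genes were the 15 highest and 15 lowest differences that passed, up to 4 passing members of each list by p, a fixed set around leptin action, the 12 genes with the most significant discordant probes, and members completing a count. The genes at the threshold, the neighbours in the runs, and the further examples of list members or probes were chosen after their values were seen. The members and the 53 lists were chosen with earlier results of these data known, and lists received no test. The fit was tested on simulated data, in which 50 probes were changed at each of several sizes. Of those changed by 1 log2 unit 27 were recovered, and of those changed by 2 log2 units 45, with 5 false calls in all. Smaller changes were not simulated, so a list without a passing member may still hold changes of 1 log2 unit or less. Alternatives changed background correction, normalization, filter, arrays and model, and left out each array.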

Additional observations from a re-analysis of the deposited data

How the results depend on the processing

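With each array left out in turn, 108 to 418 probes passed (90 to 318 higher, 17 to 100 lower), for 77 to 297 genes. Requiring a detection p under 0.01 on all arrays left 183 probes (141 higher, 134 genes), fewer being tested. Array weights gave 714 probes (474 higher, 240 lower; 485 genes), a share of higher calls of 66.4% against 80.2%; the cause was not tested. Leptin and saline arrays that share a description number had correlations of deviations of -0.16 and -0.14. The deviations of 2 saline arrays mirror each other, so these correlations cannot decide whether the arrays were paired. With the replicate number as a block 214 probes passed, 31 of them lower, for 154 genes. In the other alternatives that kept single probes 280 to 330 passed, and the mean of all probes gave 237 genes (187 higher, 50 lower). None of the 227 genes changed sign under any alternative that measured them. Leptin and saline arrays did not overlap in any of the 227, so leaving out an array could not turn a sign. Requiring a detection p under 0.01 on all arrays left 122 of the 227 measured. Of 77 named genes that passed, 35 passed under every alternative that measured them, and 15 did not pass with the block. Sign changes were limited to genes near 0 or with discordant probes. The mean of all probes gave 1.66 for Ercc5, 1.14 for Gnl2, 2.69 for Mff, -1.57 for Mkks, 0.38 for Ntrk2, -0.90 for Rpap1 and 0.66 for Sfxn4, against the brightest probe. Trh was -0.027 with median centring. With each array left out, Trh ranged from -0.14 to 0.24, Cartpt from -0.019 to 0.39, Irs2 from -0.30 to 7e-04, the brightest probe of Mff from -0.27 to 0.11 and that of Mkks from -0.02 to 0.16.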
